A study of Mus musculus with 21 samples.

Results

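The genes described here are 9 regulators of the hair follicle, *Foxn1*, *Msx1*, *Msx2*, *Dlx3*, *Lef1*, *Sox21*, *Sox9*, *Shh* and *Lhx2*, among the 55491 genes counted in mouse skin and lymph node. They were chosen by name, with earlier results of these data known, and each was found once in the skin table. The shares of calls below therefore describe these genes and are no test of them as a set. RNA was measured in 9 skin libraries from mice at 12 months of age without UV treatment. WT skin came from BALB/c mice (n = 3). Nonlesional (NL) skin (n = 2) and lesional (L) skin (n = 4) came from *Ifnk* TG mice on the same BALB/c background, which overexpress *Ifnk*, the gene of interferon kappa, in epidermal cells from a keratin 14 promoter. The keratin 14 promoter is also active in the outer root sheath of the follicle. Lesions were plaques that arose with age at sites that included the face and the back. The labels number each library but give no mouse, sex, body site or phase of the hair cycle for it, so whether NL and L samples shared a mouse is unknown. The p-values below therefore measure only the spread between these libraries. The other 12 libraries came from inguinal lymph nodes, 3 each of WT and *Ifnk* TG animals without UVB or after 250 mJ/cm2 of UVB on 3 days a week for 2 weeks.

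A hair follicle grows when epithelial cells of its matrix, around the dermal papilla, divide and then differentiate into the hair shaft and the inner root sheath. Growing follicles (anagen) regress and rest (telogen) in cycles, and stem cells of the bulge and the hair germ start each new growth phase. Shh, made by matrix and germ cells, is a secreted signal that relieves the receptor Smo from inhibition by Ptch1 and so activates the Gli transcription factors. Lef1 carries the Wnt signal in cells that become the shaft. Msx2, Dlx3 and Foxn1 act in the matrix and the forming shaft, Sox21 in the hair cuticle, and Sox9 and Lhx2 in the stem cells and the outer root sheath.

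Each of the 9 regulators was higher in L than in WT skin, by amounts that ranged from less than a doubling to a change from near absence. *Shh*, *Lef1*, *Msx2*, *Dlx3*, *Foxn1* and *Msx1* rose by more than 2 on the log2 scale, and *Sox9*, *Sox21* and *Lhx2* by less. *Shh* passed the filter on low counts only through its L libraries, so its direction was given and it is left out of the counts of calls. By the quasi-likelihood F-test of edgeR, 8 of the 8 others had an adjusted p under 0.05 (Benjamini-Hochberg over 19101 genes), where 43.1% of all tested genes passed in either direction, 23.0% as higher and 20.2% as lower in L skin. The 4 L libraries lay above all 3 WT libraries for 7 of these 8, against 26.0% of tested genes, with *Lhx2* as the exception. Their median log2 fold change was 2.83, beside 0.061 over all tested genes. Against NL skin, 6 of the 8 rose (background 25.0% in either direction, 13.2% as higher and 11.8% as lower), and for those 6 the L libraries lay above both NL libraries, as for 24.7% of tested genes. The median over the 8 was 2.73 beside 0.034 over all genes. *Sox9* and *Lhx2* were not called there. Without either NL library only *Msx1* and *Msx2* of the 8 kept their calls against NL skin, and *Foxn1*, *Dlx3*, *Lef1* and *Sox21* had adjusted p values between 0.0510 and 0.0976. L libraries enter both comparisons, so the results against WT and against NL skin are not independent. Between NL and WT skin edgeR called 0 of 9 (2 had an unadjusted p under 0.05, and DESeq2 called 1), and 0.0% of all genes. In these samples of whole tissue, more cells of a type and more RNA per cell cannot be told apart. The plot of CPM (counts relative to the TMM-scaled library size, times 1000000) by library shows the levels.

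**Figure D1:**
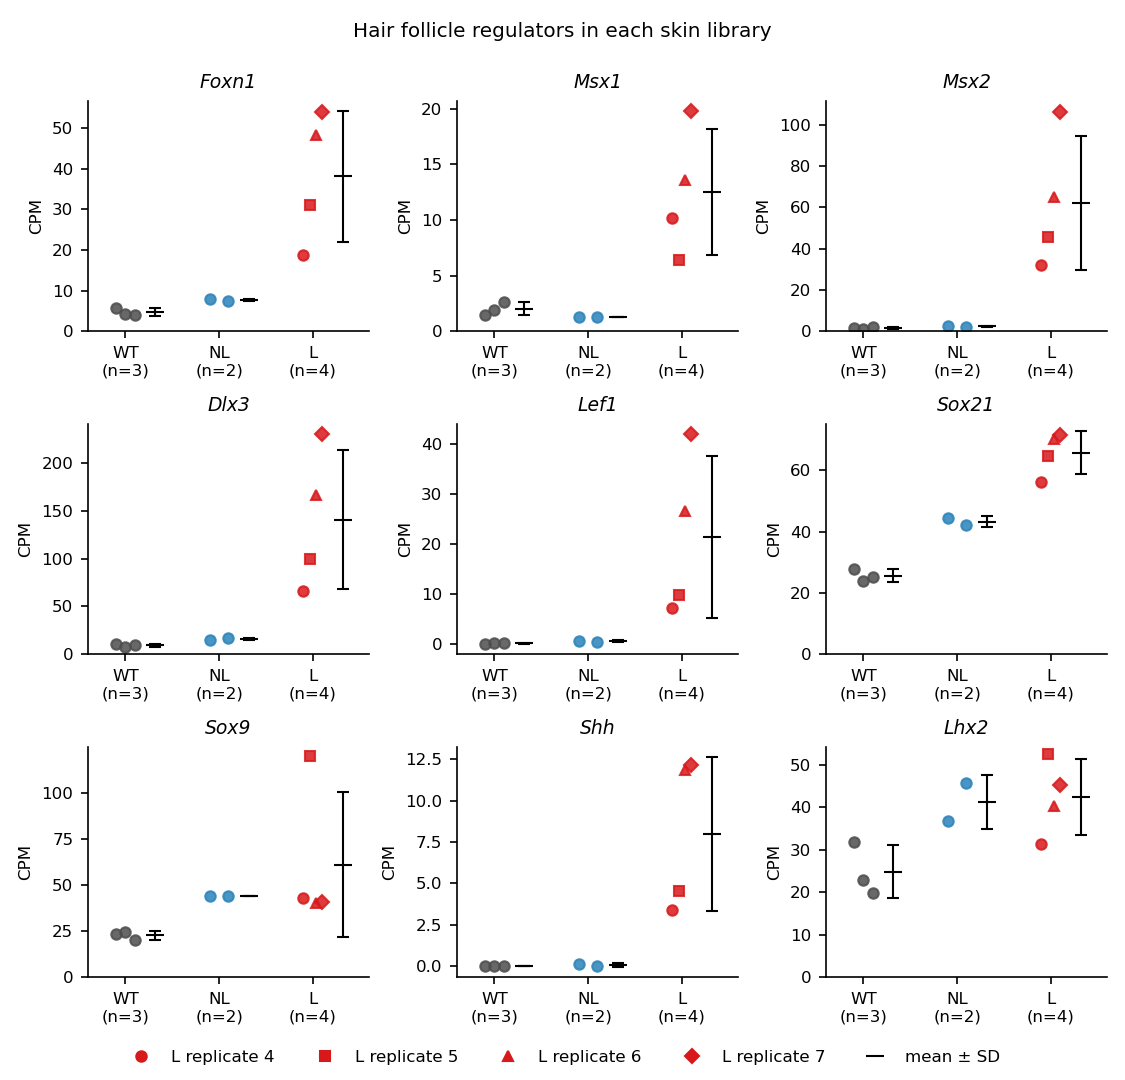
Levels of the 9 regulators in CPM (y axis, linear, a separate scale for each gene) in every WT, NL and L skin library, with the mean ± SD of each group in black and a separate symbol for each L library. *Msx2*, *Dlx3*, *Lef1*, *Foxn1*, *Msx1* and *Shh* are far higher in all 4 L libraries than elsewhere, *Sox21* rises in steps from WT to NL to L, a single L library stands out for *Sox9*, and the L and NL libraries overlap for *Lhx2*.

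*Shh*, the secreted signal of the pathway, was close to absent outside lesions. The gene (ENSMUSG00000002633) lies on chromosome 5 from 28456815 to 28467256 on the minus strand of GRCm38. It had 188, 185, 537 and 673 counts in L replicates 4, 5, 6 and 7, 8 and 0 counts in NL replicates 2 and 3, and 1, 0 and 0 counts in WT replicates 8, 9 and 10. All L libraries thus lay well above all others, and in L skin the level was 7.99 ± 4.64 CPM (SD, n = 4). Scaled for library size, the ratio of L to WT skin was 1019, with a 95% interval from 182.6 to 40280 that covers counting error only, because WT skin held a single count. Against a floor of 3 counts in each WT library the ratio was 112.0. The ratio of L to NL skin was 93.8 (interval 47.5 to 217.7), and all 8 NL counts came from 1 library. Since *Shh* was tested only because its L libraries passed the filter, no p-value is given for it. A gene on the opposite strand that overlaps *Shh*, 9530036O11Rik, had 5 counts over all skin libraries.

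Among the other hedgehog genes, all 3 Gli transcription factors rose in L skin relative to WT skin. Of 17 genes listed for the pathway 16 were tested. In L against WT skin 8 rose and 2 fell, with a median log2 fold change of 0.44. Over all tested genes 23.0% rose and 20.2% fell. *Gli1*, a transcription factor that is itself a target of the pathway, measured 2.37 ± 0.156 CPM in WT (SD, n = 3) and 11.5 ± 3.75 CPM in L skin (n = 4), an increase that passed the test (log2 fold change 2.27, SE 0.33, edgeR adjusted p = 0.00094). *Kif7*, a regulator of Gli proteins at the cilium, rose by 1.44 and *Gli2* by 1.24 on that scale. *Gli3*, *Hhip*, which binds and restrains hedgehog ligands, and *Ptch1*, the receptor, also passed the test, with log2 fold changes of 1.30, 1.54 and 0.93. The 2 genes that fell were *Cdon*, a co-receptor, with a log2 fold change of -0.84, and *Disp1*, which releases the ligand from the cell, with -0.78. Against NL skin 4 of the 16 were higher and 1 lower, with a median of 0.61, where 13.2% of all tested genes were higher and 11.8% lower. The other hedgehog ligands did not follow *Shh*: *Dhh* had a log2 fold change of -0.75 between L and WT skin (adjusted p = 0.183) and *Ihh* was under the filter.

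*Msx2* and *Dlx3*, homeobox factors of the hair matrix, and *Foxn1*, the forkhead factor that is mutated in nude mice and needed for a firm hair shaft, rose together. *Msx2* (ENSMUSG00000021469, chromosome 13, 53466884 to 53473074, minus strand) measured 32.0, 45.6, 64.8 and 106.4 CPM in L replicates 4 to 7, 2.66 and 2.26 CPM in NL, and 1.78, 0.855 and 2.08 CPM in WT skin. The lowest L library was far above every NL and WT library. On the log2 scale the change was 5.31 against WT (SE 0.53, adjusted p = 0.000266) and 4.66 against NL skin (SE 0.61, adjusted p = 0.00213).

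*Dlx3* (ENSMUSG00000001510, chromosome 11, 95120119 to 95125296, plus strand) measured 66.6, 99.6, 166.9 and 230.4 CPM in L replicates 4 to 7, 15.1 and 16.5 CPM in NL, and 11.2, 7.60 and 9.18 CPM in WT skin. L libraries again stood apart, while both NL libraries lay just above the WT range. The log2 fold change was 3.92 against WT (SE 0.45, adjusted p = 0.000427) and 3.16 against NL skin (SE 0.51, adjusted p = 0.00435). *Foxn1* (ENSMUSG00000002057, chromosome 11, 78357577 to 78386558, minus strand) measured 18.9, 31.1, 48.3 and 54.0 CPM in the same L libraries, 7.93 and 7.46 CPM in NL, and 5.75, 4.23 and 3.93 CPM in WT skin. Its groups did not overlap either, and its changes were smaller than those of *Msx2*, at 3.04 against WT (SE 0.37, adjusted p = 0.000528) and 2.31 against NL skin (SE 0.42, adjusted p = 0.00671). *Foxn1*, *Msx2* and *Dlx3* had the same order of the 4 L libraries, with replicate 4 lowest and replicate 7 highest. *Lef1*, *Sox21* and *Shh* had this order too.

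*Msx1*, the close relative of *Msx2* in the homeobox family, had a pattern of its own among the strongly raised genes. The gene (ENSMUSG00000048450, chromosome 5, 37820485 to 37824583, minus strand) measured 10.2, 6.44, 13.6 and 19.8 CPM in L replicates 4 to 7, 1.26 and 1.28 CPM in NL, and 1.48, 1.92 and 2.65 CPM in WT skin. L libraries lay above all others, but NL skin lay below all WT libraries, unlike for any other member. The log2 fold change was therefore larger against NL skin (3.30, SE 0.49, edgeR adjusted p = 0.00289) than against WT skin (2.63, SE 0.40, adjusted p = 0.00113). The step from WT to NL skin itself, -0.67, did not pass the test (adjusted p = 0.749).

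*Lef1*, the DNA-binding partner of beta-catenin in the precursors of the shaft and in the dermal papilla, went from near absence to a clear level. The gene (ENSMUSG00000027985, chromosome 3, 131110471 to 131224356, plus strand) had 3, 7 and 10 counts in the WT libraries. It measured 7.14, 9.87, 26.7 and 42.0 CPM in L replicates 4 to 7, 0.688 and 0.466 CPM in NL, and 0.0684, 0.166 and 0.247 CPM in WT skin. These values span a 5.88-fold range among the L libraries, the widest of the 9 genes, and the L, NL and WT groups formed separate levels. *Lef1* rose by 7.05 on the log2 scale against WT (SE 0.87, adjusted p = 0.000589) and by 5.20 against NL skin (SE 0.91, adjusted p = 0.00610), while NL against WT skin gave 1.85 (adjusted p = 0.696). Gm43352, an antisense gene that overlaps *Lef1*, had 232 counts over all skin libraries, and the strand setting of the counting is not given in the sources used here.

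*Lef1* is also expressed in T cells, so its level was set beside a list of 9 T cell genes (*Cd3d*, *Cd3e*, *Cd3g*, *Cd4*, *Cd8a*, *Cd8b1*, *Cd2*, *Cd5* and *Lck*). In lymph nodes, *Lef1* ranged from 267.6 to 404.1 CPM over 12 libraries, which was 9.70% to 12.25% of the summed CPM of the T cell genes. In skin this share was 9.81% and 10.9% in L replicates 4 and 5, 29.4% in L replicate 6 and 110% in L replicate 7. L replicates 4 and 5 were thus within the range of lymph nodes, and L replicates 6 and 7 far above it. NL skin, at 1.70% and 0.900%, and WT skin, at 0.159% to 0.623%, lay far below it. Without *Cd8b1*, which passed the filter only through L libraries, 5 of 8 T cell genes rose in L against WT skin (23.0% of all tested genes did). With it, 6 of the 9 T cell genes rose and 0 fell. Their summed level ran from 38.2 to 90.8 CPM in L, 40.4 to 51.8 CPM in NL and 32.8 to 43.0 CPM in WT skin, and L replicate 7, with the most *Lef1*, had the least of it among the L libraries. T cells of skin and of lymph node need not hold the same share of *Lef1*. The paper scored lesional skin low for central memory and high for effector memory T cells. The part of T cells in the *Lef1* difference was not tested beyond these values.

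**Figure D2:**
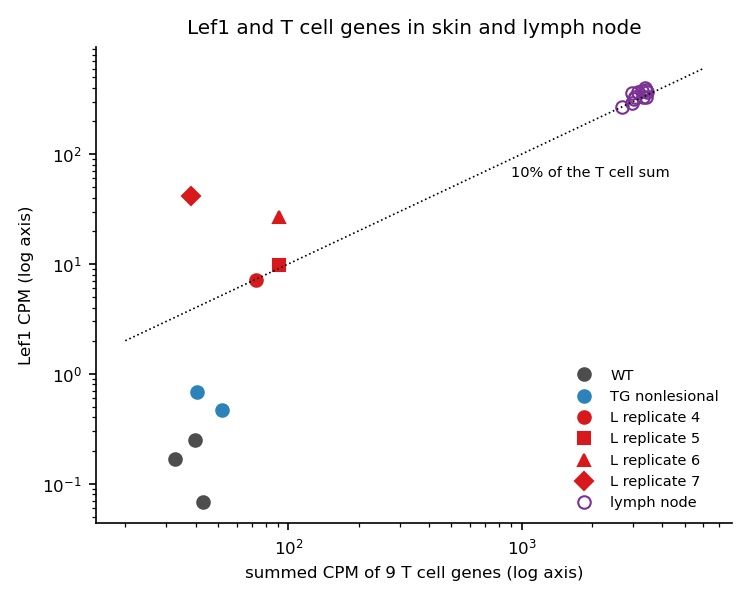
*Lef1* (y axis, CPM, log scale) against the summed CPM of 9 T cell genes (x axis, log scale) in 9 skin and 12 lymph node libraries, with a dotted line where *Lef1* is 10% of the sum. Lymph nodes and L replicates 4 and 5 lie near the line, L replicates 6 and 7 above it at 29.4% and 110%, and NL and WT skin far below it.

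The other regulators were low in lymph node, a tissue without hair follicles. *Dlx3* and *Shh* had 0 counts in all 12 lymph node libraries, which allows up to 3 counts in each, and *Foxn1* and *Msx2* had at most 1. *Sox21* reached 2 counts, *Sox9* 6, *Lhx2* 15 and *Msx1* 29. *Lef1* alone was abundant, with group means of 382.9 ± 19.9 CPM in WT and 353.0 ± 32.4 CPM in *Ifnk* TG mice without UVB, and of 319.8 ± 48.5 CPM and 317.2 ± 23.9 CPM after UVB (SD, n = 3 each). These node levels are given as a description, with no test.

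*Sox21*, a factor of the hair shaft cuticle, changed less, with the smallest standard error of the 9 against WT and against NL skin. The gene (ENSMUSG00000061517, chromosome 14, 118233232 to 118237030, minus strand) measured 56.2, 64.8, 70.4 and 71.7 CPM in L replicates 4 to 7, 44.6 and 42.0 CPM in NL, and 27.9, 23.9 and 25.3 CPM in WT skin. The groups formed 3 steps without overlap. The log2 fold change was 1.36 between L and WT (SE 0.11, adjusted p = 0.000112) and 0.60 between L and NL skin (SE 0.13, adjusted p = 0.0106). Between NL and WT skin it was 0.75 (SE 0.13, 95% interval 0.46 to 1.05) with an unadjusted p of 0.000256 from edgeR's fit across all genes, which was 0.417 after adjustment. DESeq2 gave an adjusted p of 0.00244 for the same difference, and over all alternatives the value ran from 0.00244 to 1.0. Gm4675, a noncoding gene that overlaps *Sox21* on the other strand, had 199 counts in all.

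*Sox9*, which specifies the outer root sheath and bulge stem cells, was higher in every NL and L library than in any WT library, while L and NL skin overlapped. Its difference between NL and WT skin did not pass the test (log2 fold change 0.95, 95% interval -0.10 to 2.01, edgeR adjusted p = 0.679). The gene (ENSMUSG00000000567, chromosome 11, 112782224 to 112787760, plus strand) measured 43.0, 119.9, 40.3 and 40.9 CPM in L replicates 4 to 7, 43.8 and 43.9 CPM in NL, and 23.2, 24.6 and 20.1 CPM in WT skin. L replicate 5 held close to 3 times the level of the other L libraries, which lay just below both NL libraries. The log2 fold change was 1.43 against WT (SE 0.41, adjusted p = 0.0222) and 0.48 against NL skin (SE 0.45, 95% interval -0.56 to 1.51, adjusted p = 0.474). Without L replicate 5 these were 0.87 and -0.083. Leaving out a WT library took the adjusted p against WT to between 0.0584 and 0.0753.

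*Lhx2*, a LIM-homeobox factor of the hair germ and bulge, changed least of the 9. The gene (ENSMUSG00000000247, chromosome 2, 38339281 to 38369733, plus strand) measured 31.4, 52.6, 40.4 and 45.3 CPM in L replicates 4 to 7, 36.9 and 45.7 CPM in NL, and 31.8, 22.9 and 19.9 CPM in WT skin. L replicate 4 fell within the WT range, below WT replicate 8. Its log2 fold change was 0.77 against WT (SE 0.21, adjusted p = 0.0184) and 0.038 against NL skin (SE 0.24, 95% interval -0.50 to 0.58, adjusted p = 0.924). Without WT replicate 9 or WT replicate 10 the adjusted p against WT was 0.0669 or 0.0715.

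**Figure D3:**
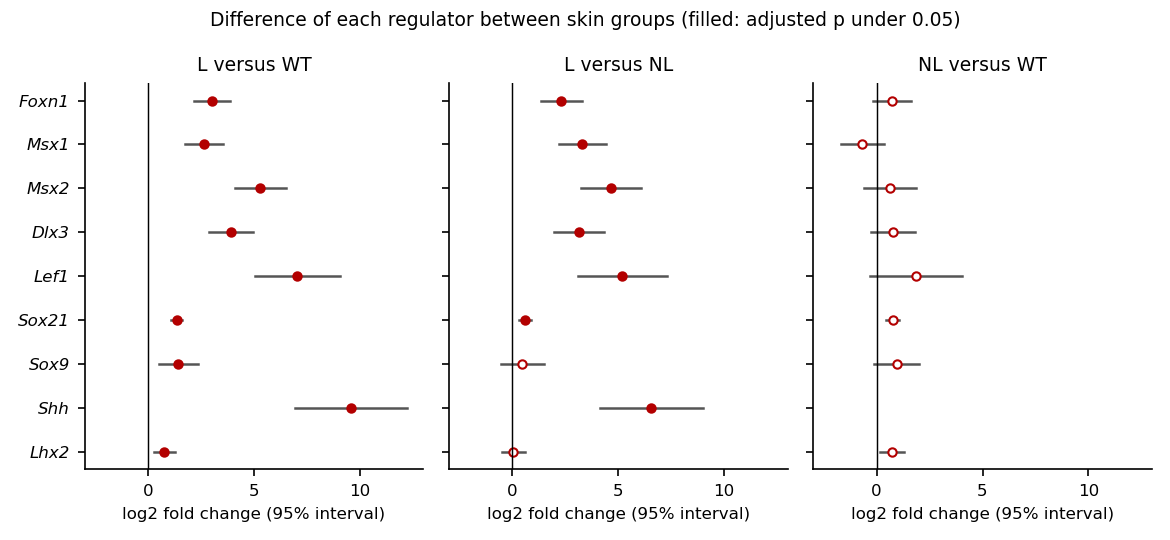
Log2 fold change of each regulator (x axis) with its 95% interval from the edgeR fit, for L against WT (left, where the value of *Shh* rests on 1 WT count), L against NL (middle) and NL against WT skin (right), with filled circles where the adjusted p was under 0.05. *Shh* was tested only through its L libraries. Its circle is filled on the left and in the middle, and it is left out on the right. Of the other 8 genes, 8 are filled on the left and 6 in the middle. Of all tested genes 43.1% and 25.0% were called there in either direction. None is filled on the right.

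Between NL and WT skin 7 of the 8 genes other than *Shh* were higher in NL skin without passing the test, by up to 1.85 on the log2 scale for *Lef1*. The median of the 8 was 0.74, beside -0.0011 over all genes. Both NL libraries lay above all 3 WT libraries for 7 genes, where 18.6% of tested genes did so, and below them for *Msx1*, as for 16.3% of tested genes. Without adjustment 2 of the 9 passed 0.05 by edgeR, *Sox21* and *Lhx2* (log2 fold change 0.73), as did 7.67% of all tested genes. None of the 9 passed after adjustment. By DESeq2 1 of the 9 was called, *Sox21*. Intervals were wide for the genes that rose most in lesions, from -0.58 to 1.87 for *Msx2* and from -0.32 to 4.03 for *Lef1*, so these libraries bound a difference there only loosely. Epithelial markers moved the same way, with all 7 tested genes of the basal epidermis positive in NL against WT skin (median 0.69). Their summed level was 8677 and 8968 CPM in NL against 5059 to 5999 CPM in WT skin. Of the bulge and upper follicle genes 9 of 11 were positive (median 0.36), with sums of 3985 to 4407 CPM in NL against 2532 to 3018 CPM in WT skin. The part of either list in the NL values was not tested.

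Levels of different genes are compared here only per length, as CPM per kilobase of exon (the union of a gene's GENCODE exons). In WT skin the order of this level was *Sox21* at 6.76 ± 0.530 (SD, n = 3), *Lhx2* at 5.66 ± 1.41, *Sox9* at 5.48 ± 0.560, *Dlx3* at 3.58 ± 0.693, *Foxn1* at 1.44 ± 0.303, *Msx1* at 0.651 ± 0.190 and *Msx2* at 0.479 ± 0.194. *Lef1*, at 0.0183, and *Shh*, at 0.00267, came last. In L skin *Dlx3* led the level per length at 54.0 ± 27.9 (SD, n = 4), followed by *Msx2* at 19.0 ± 9.88, *Sox21* at 17.3 ± 1.86, *Sox9* at 14.8 ± 9.50, *Foxn1* at 11.9 ± 5.01 and *Lhx2* at 9.66 ± 2.03. *Msx1* at 4.04 ± 1.83, *Shh* at 2.81 ± 1.63 and *Lef1* at 2.44 ± 1.84 stood below these. Neighbours in the order of L skin overlapped in their library ranges, apart from *Lhx2* and *Msx1*. In WT skin the ranges of *Sox21*, *Lhx2* and *Sox9* overlapped from each to the next, as did those of *Msx1* and *Msx2* and those of *Lef1* and *Shh*. The order depends on the length used. With the longest transcript, *Lhx2* led in WT skin at 8.76, above *Sox21* at 6.76. In L skin *Lhx2*, at 14.9, then came just above *Sox9*, at 14.8, and *Lef1*, at 5.85, came above *Shh*, at 2.81.

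The L libraries differed among themselves in a shared order. L replicate 7 was highest for 7 of the 9 genes, and L replicate 5 for *Sox9* and *Lhx2*. L replicate 4 was lowest for 7 genes, with *Msx1* lowest in L replicate 5 and *Sox9* in L replicate 6. The highest L library exceeded the lowest by 1.28-fold for *Sox21* and by 5.88-fold for *Lef1*. Structural genes of the inner root sheath had the same order of L libraries as *Foxn1*, *Msx2*, *Dlx3*, *Lef1*, *Sox21* and *Shh*. The summed levels of these structural genes were 5553, 11590, 15830 and 21690 CPM in L replicates 4 to 7. For mitosis genes the sums were 230.3, 223.7, 437.8 and 513.7 CPM, which put L replicates 6 and 7 above L replicates 4 and 5. Bulge and upper follicle genes were highest in L replicate 5, at 2427 CPM, and lowest in L replicate 7, at 1071 CPM. Their part in the differences among L libraries was not tested.

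Genes that mark the differentiated parts of a follicle rose by larger folds than the regulators, by their medians. All 11 tested hair shaft keratins rose in L against WT skin, with a median log2 fold change of 11.98 and summed levels of 1995 to 6375 CPM in L, 7.38 to 11.4 CPM in NL and 7.03 to 8.93 CPM in WT skin. *Krt32* rose by 4.83 on the log2 scale and *Krt35* by 11.87. *Krt33b* had at most 1 count in any WT library and was 4914-fold higher in L skin than the floor of 3 counts in each WT library. The keratin median stays at 11.98 with the 4 keratins that were near 0 in WT skin set at that floor. Of the 11 keratins 6 passed the filter only through L libraries, *Krt35* and *Krt33b* among them, and the other 5 had a median of 8.93. All 8 inner root sheath genes rose as well (median 12.46, or 12.40 over the 5 that did not depend on L libraries to pass the filter), among them *Tchh*, trichohyalin, by 9.72, *Krt27* by 12.40 and *Krt28* by 7.79. Of 11 dermal papilla genes, *Lef1* included, 6 rose and 0 fell, where 23.0% of all tested genes rose and 20.2% fell. Without *Corin* and *Sox2*, which passed the filter only through L libraries, 5 of 9 rose. *Wif1* rose by 2.21 and *Corin* by 4.60. Against NL skin the same 11 keratins and 8 sheath genes were called higher, as were 13.2% of all tested genes. *Krt85* was not analysed here.

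Many other transcription factors of the follicle rose in L skin, and stem cell genes went both ways. Of 25 such factors tested, 16 rose and 0 fell in L against WT skin (median 1.30), among them *Hoxc13*, which controls hair keratin genes, at 4.79, *Ovol1* at 1.95 and *Vdr*, the vitamin D receptor, at 1.80. The other 9 were not called, and without 3 factors that passed the filter only through L libraries 14 of 22 rose. Against NL skin 11 of the 25 were higher, or 10 of the 22, and 2 were lower, *Gata3* (-0.58) and *Nfatc1* (-0.97). Over all tested genes 23.0% were higher and 20.2% lower in L against WT skin, and 13.2% and 11.8% against NL skin. In L against WT skin signalling genes were mixed, with 8 higher and 3 lower of 24. *Wnt11* rose by 2.65, *Fgf5*, which ends anagen, by 4.66 and *Edaradd* by 0.94, whereas *Tgfb2* (-1.20), *Nog* (-1.56), the BMP inhibitor noggin, and *Eda* (-0.44) fell. Of 11 bulge and upper follicle genes 3 rose, *Lgr5* by 2.17, *Plet1* by 1.47 and *Cd200* by 0.89. Another 4 fell, among them *Cd34*, which vessels and fibroblasts also express, at -1.58, and the list had a median of -0.053. Summed levels of the 11 were 1071 to 2427 CPM in L, 3985 to 4407 CPM in NL and 2532 to 3018 CPM in WT skin. Against NL skin 2 were higher and 4 lower, with a median of -0.41. Between NL and WT skin 0 genes of any of these lists were called by edgeR.

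**Figure D4:**
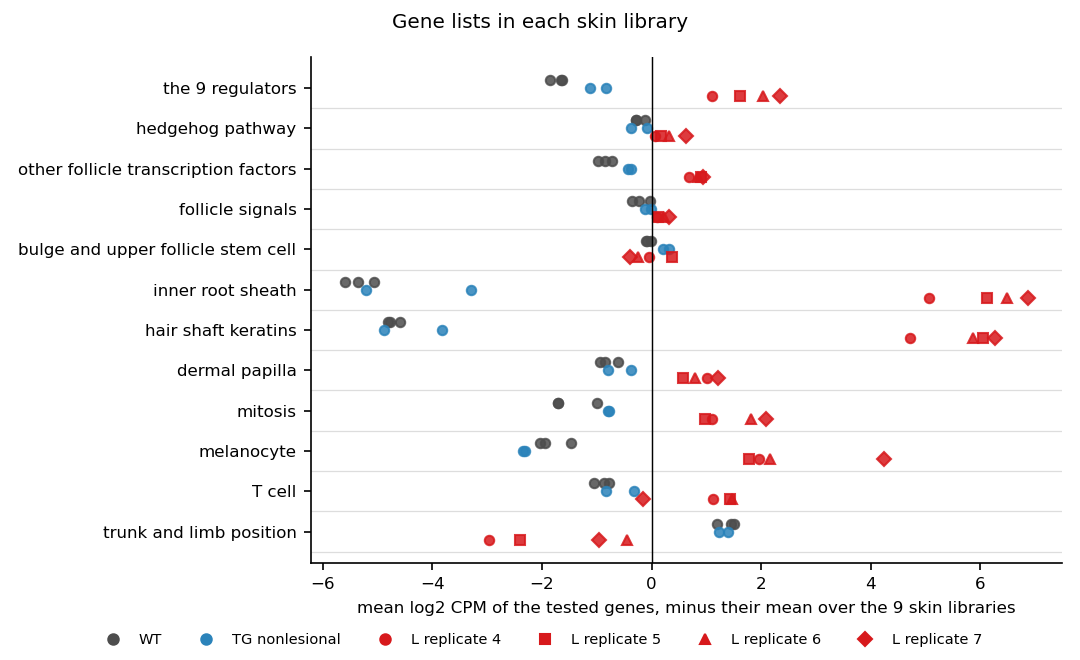
Mean log2 CPM of the tested genes of each list, minus their mean over the 9 skin libraries (x axis), in WT, NL and L libraries, with a separate symbol for each L library. The regulators, sheath, shaft and mitosis lists lie to the right in all 4 L libraries, the bulge list is spread around 0, L replicate 7 lies close to NL skin in the T cell list, and genes of trunk and limb position lie to the left in L libraries.

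Other tissue markers differed between the same libraries. Over all tested genes 23.0% were higher and 20.2% lower in L than in WT skin. All 10 mitosis genes rose in L against WT skin (median 3.06), with *Bub1* at 4.02, *Birc5* at 3.54 and *Cdk1* at 3.06. Of 8 melanocyte genes 7 were higher, or 5 of 6 without *Slc45a2* and *Oca2*, which passed the filter only through L libraries. Summed levels of the 8 were 119.9 to 666.0 CPM in L, 14.7 to 16.4 CPM in NL and 19.5 to 26.7 CPM in WT skin. *Slc45a2*, *Tyr* and *Mlana* rose by 6.56, 6.09 and 5.01. Differentiated epidermis had 5 of 8 higher, led by *Casp14* (3.59), *Flg* (4.26) and *Ivl* (2.11). Sebaceous gland had 4 of 8 higher, among them *Elovl3* (5.32), *Fa2h* (2.20) and *Awat1* (1.17). Basal epidermis had 2 of 7 higher, *Krt14* (1.41) and *Cdh1* (0.70), and *Dst* (-1.40) lower. Skeletal muscle had 5 of 10 lower, with *Myh1*, *Actn3* and *Myh2* at -4.41, -4.28 and -3.89, and summed levels of 27.6 to 7730 CPM in L against 30970 to 42590 CPM in WT skin. Adipocyte genes had 4 of 8 lower, with *Plin4*, *Adipoq* and *Retn* at -2.20, -2.20 and -2.00, and fibroblast genes 1 of 7, *Dcn* (-0.89). Among T cell genes, *Cd5*, *Lck* and *Cd4* rose by 3.61, 1.59 and 1.86.

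Genes that record position along the body also separated the L libraries. Over all tested genes 23.0% were higher and 20.2% lower in L than in WT skin, and 11.8% were lower than in NL skin. Of 17 genes of trunk and limb position, mostly *Hox* genes, 0 rose and 11 fell in L against WT skin (median -1.94). Of these 17 genes, 9 were lower than in NL skin. Their summed level was 45.2 to 92.2 CPM in L, 262.0 to 266.5 CPM in NL and 278.9 to 310.0 CPM in WT skin. *Hoxd9* (-1.55), *Hoxd8* (-1.82) and *Hoxc10* (-5.21) had the smallest adjusted p values of the list, while *Hoxc13*, the hair keratin regulator, rose. Of 9 genes of head position 3 were higher, among them *Tfap2b* (0.77) and *Alx4* (2.21), and *Dlx6* (-3.56) was lower. In the summed trunk and limb genes all 4 L libraries lay below all 5 others, whereas the summed head genes overlapped between L (44.7 to 63.5 CPM) and NL skin (44.9 to 46.8 CPM). Lesion, body site and phase of the hair cycle cannot be told apart in these data. The part of body site in the differences of the 9 regulators was not tested.

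The genes with the profiles most like each regulator were found by the root-mean-square difference of log2 CPM over the 9 skin libraries, after each gene was centred on its own mean. For *Sox21* they were *B4galnt3* (0.0807), *Nasp* (0.106) and *Fbxl19* (0.107), the closest matches of any member, and for *Lhx2* they were *Sh3rf1* (0.125), *Grhl2* (0.152) and *Efnb2* (0.169). *Sox9* came closest to *Tmem41b-ps* (0.222), *Adgrl3* (0.240) and *Anxa9* (0.243). For the matrix factors the lists included hair and mitosis genes. *Dlx3* was nearest to *Jakmip2* (0.274), *Krt75* (0.310) and *Bub1* (0.312), *Msx2* to *Alox8* (0.340), *1810073O08Rik* (0.368) and *Krt32* (0.423), *Foxn1* to *Ass1* (0.273), *Hephl1* (0.293) and *H3c3* (0.307), and *Msx1* to *Depdc1b* (0.255), *Dnah8* (0.262) and *Rnf180* (0.278). The nearest genes of *Lef1* were *Hes2* (0.714), *Cldn14* (0.743) and *Capn12* (0.745). Those of *Shh* were *Gjb2* (0.562), *Foxe1* (0.634) and *Uox* (0.662), and both members had larger differences than the others. The difference is not scaled for the size of a change, so it tends to be larger for genes with large fold changes. *H3c3* and *Tmem41b-ps* were low, with group means of at most 0.289 and 0.361 CPM. Within the 9, the closest pairs were *Sox21* with *Lhx2* (0.356), *Foxn1* with *Dlx3* (0.437) and *Sox9* with *Lhx2* (0.437), and the farthest was *Shh* with *Lhx2* (3.22). These are descriptions over 9 libraries, in which genes of one library share its depth and tissue makeup.

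Sequences before the start sites of 4 members are shown to set 2 genes that rose strongly in lesions, *Foxn1* and *Msx1*, beside 2 that rose little, *Sox21* and *Lhx2*. Each is the 100 bases before the RefSeq start site (GRCm38.p6), 5′ to 3′ on the strand of the gene, and capitals mark CpG, the dinucleotide at which mammalian DNA is mostly methylated. In windows of 300 bases (250 before and 50 after the start), *Foxn1* held 8 CpG, *Msx1* 29, *Sox21* 22 and *Lhx2* 34 at its upstream start, and the median of 32841 such windows was 7.
Foxn1 (chr11:78386609-78386708, minus strand): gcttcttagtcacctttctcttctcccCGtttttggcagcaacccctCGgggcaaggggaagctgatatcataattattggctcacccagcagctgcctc
Msx1 (chr5:37824586-37824685, minus strand): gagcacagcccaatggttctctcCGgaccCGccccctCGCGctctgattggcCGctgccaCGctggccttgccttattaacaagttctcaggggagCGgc
Sox21 (chr14:118237031-118237130, minus strand): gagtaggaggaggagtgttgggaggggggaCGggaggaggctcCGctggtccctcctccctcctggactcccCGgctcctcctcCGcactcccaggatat
Lhx2 (chr2:38339181-38339280, plus strand): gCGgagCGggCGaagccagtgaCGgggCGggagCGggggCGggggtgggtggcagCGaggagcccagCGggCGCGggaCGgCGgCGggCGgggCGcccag
The *Lhx2* sequence is the densest in CpG and the *Foxn1* sequence the poorest, with *Msx1* above *Sox21* between them. *Msx2* held 22 CpG in its window and the *Lef1* windows between 5 and 21.

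The 10 windows of the 6 members with a RefSeq window (*Foxn1*, *Msx1*, *Msx2*, *Lef1* with 4 starts, *Sox21* and *Lhx2* with 2) were searched on both strands for letters that Lef1 and its relatives, Gli proteins and homeobox factors are known to bind. The LEF/TCF letters CTTTGNN, where each N is A or T, are in 16.9% of all windows, the GLI letters ACCACCC in 4.61%, the homeobox letters CAATTA in 8.0%, and any of these in 27.0%. Among the members' windows, 2 held a match, both before internal starts of *Lef1*, and they are shown with the match in capitals on the gene's plus strand, where it reads as the reverse complement.
Lef1, GLI letters (chr3:131112714-131112760): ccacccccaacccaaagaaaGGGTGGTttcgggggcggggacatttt
Lef1, LEF/TCF letters (chr3:131156127-131156173): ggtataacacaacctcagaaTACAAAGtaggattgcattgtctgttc
Neither stretch overlaps a GENCODE exon. A match is a description of the letters in these windows and not evidence of binding, and *Dlx3*, *Sox9* and *Shh* have no window here.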

How the data were processed

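The 9 genes, the gene lists and the tests were chosen with earlier results of these data known. RNA was measured by poly-A sequencing in 9 skin and 12 lymph node libraries. The submitters' processing notes name cutadapt 4.8, STAR 2.7.8a, RSEM 1.3.3 and the build GRCm38, and the authors deposited expected counts per gene, estimated by RSEM, which are whole numbers without normalization. Skin libraries held 40499078 to 56511276 counts and lymph node libraries 27599809 to 36428435. Intervals from counts cover counting error only, since no molecular identifiers were used, and 3 counts were taken as the floor.

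All 9 skin libraries were fitted by group in a single model with edgeR 4.0.16 in R 4.3.3 (glmQLFit, robust, and glmQLFTest) after TMM scaling and filterByExpr (10 counts in enough libraries, 15 in total), which kept 19101 genes. P-values were adjusted by Benjamini-Hochberg over these genes, and 0.05 was the threshold. Standard errors were derived from the F statistic and 95% intervals from the t distribution with the fit's degrees of freedom. The study fitted DESeq2, which is an alternative here (version 1.42.0). The other alternatives were RLE and upper-quartile factors, TMM without hair, muscle and fat genes, other filters on low counts, no robust estimation, only the groups compared, a threshold of 0.01, glmTreat with a log2 fold change of 1, each library left out, and for levels per length the longest transcript. Positions and lengths came from GENCODE M21, where 55227 of 55491 identifiers matched.

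Named genes are the 9 members, the 3 genes of smallest adjusted p between L and WT skin in each of 18 other lists with those called against the majority of their list, and the 3 genes most like each member. In the hedgehog list *Gli3*, *Hhip*, *Ptch1*, *Dhh* and *Ihh* were added after their values were seen. *Ifnk* itself had 5 to 14 counts in L, 6 and 0 in NL and 0 in each WT library, and whether transgene transcripts are counted under this gene was not tested.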

Additional observations from a re-analysis of the deposited data

Results flagged for a closer look

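*Sox9* in L replicate 5 measured 119.9 CPM, far from the other 3 L libraries at 40.3 to 43.0 CPM. Its gap to the nearest of them was 0.966 of the range of the group, above Dixon's 95% limit for 4 values. Chance alone puts about 1 in 20 groups past this limit, and 9 genes were examined at both ends of the L group. *Lhx2*, the other stem cell factor, was also highest in L replicate 5, but its gap was 0.344 of the range, within that limit. Among L libraries the summed bulge and upper follicle genes were highest there too, at 2427 CPM. That sum was below those of WT (2532 to 3018 CPM) and NL skin (3985 to 4407 CPM). Sums of the sebaceous gland genes (6293 CPM) and of the other follicle transcription factors (1825 CPM) were likewise highest in L replicate 5. The cause was not tested.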

How the results depend on the processing

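No paired analysis was possible because the labels name no mouse for the skin libraries. The calls for *Msx1* and *Msx2* in L against WT and against NL skin held under every alternative that gave them a value, as did those for *Foxn1*, *Dlx3*, *Lef1* and *Sox21* against WT skin. *Lef1* and *Shh* have no value with at least 10 counts required in every library. Against WT skin the log2 fold change of *Sox9* ran from 0.87 to 1.58 and that of *Lhx2* from 0.63 to 0.98. *Sox9* lost its call in 6 of 19 alternatives (adjusted p = 0.0533 with no filter) and *Lhx2* in 4. The number of genes called between L and WT skin was 4823 at an adjusted p under 0.01 and 1732 when tested against a log2 fold change of 1. It ran from 6243 to 8028 with a library left out, with 7 to 9 members called. For both comparisons with L skin the counts of members include *Shh*, which passed the filter only through its L libraries. Between L and NL skin the number of genes called was 1872 and 749 under the same settings and 3156 with only the groups compared. With a library left out it ran from 1182 to 5187, with 3 to 7 members. The low values came from leaving out either NL library (1470 without NL replicate 2 and 1182 without NL replicate 3), which leaves 1 NL library that is assumed to vary like the others, and took *Foxn1*, *Dlx3*, *Lef1* and *Sox21* to adjusted p values between 0.0510 and 0.0976. Tested against a log2 fold change of 1, *Foxn1* and *Sox21* had 0.0545 and 1.0. Signs that turned were those of *Sox9* (-0.083 without L replicate 5, the others up to 0.63) and *Lhx2* (-0.080 without L replicate 5, -0.11 to 0.22 over the libraries left out) between L and NL skin, and of *Shh* between NL and WT skin (-1.95 without NL replicate 2, which held all its NL counts, up to 4.99). Between NL and WT skin DESeq2 called 80 genes with 1 member, *Sox21*, and the fit of only the groups compared called 1 gene. The cause of these changes was not tested. No scaling moved the median of all genes by more than 0.1 on the log2 scale. Depth limits the folds of *Shh* and *Lef1*, whose WT and NL counts are few.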
